A study of Mus musculus with 6 samples.

Results

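The genes of branched-chain amino acid and propionate catabolism were examined in mouse gastrocnemius, a calf muscle made mostly of fast fibres. They were chosen by name as the enzymes, complex subunits, cofactor proteins and a transcription factor of the pathway, and 31 of them were present among the 54532 genes of the deposited count table (methylmalonyl-CoA mutase is listed there as Mut). The set was proposed with earlier results of the same comparison in view, so the differences below describe these libraries and lend no support to the choice of the genes.

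Mice of 2 kinds were compared, with 3 libraries each. The libraries labelled MP came from mice carrying Mck cre, in which the muscle creatine kinase promoter drives Cre in skeletal and cardiac muscle, and a transgene named Tg Glut1-Hk2-Pfkfb3. The libraries labelled Ctrl came from mice with Mck cre alone. All were C57BL/6J, aged 3 months, and all drank 0.2% doxycycline from the age of 4 weeks. Whether each library is a different animal is not in the labels, and p-values therefore reflect only the variation among these 6 libraries, which may be technical. Totals ran from 19546456 to 24665024 counts per library, and 14973 genes passed a filter on low counts and were tested. Of the 31 members 30 were tested, and the remaining member, Hmgcll1, had too few counts. All 10 skeletal muscle markers were detected, and their sum ran from 113848 to 133444 CPM (counts scaled to library size) in MP libraries and from 107044 to 156943 CPM in Ctrl libraries. None of the genes named in the transgene passed the test as higher in MP libraries (edgeR adjusted p = 0.290 for Slc2a1, which encodes GLUT1, and 0.381 for Hk2). Whether a transgene copy would be counted under these names is not in the labels. Pfkfb3 was at 120, 476 and 542 CPM in MP libraries and at 579, 1096 and 1585 CPM in Ctrl libraries (edgeR adjusted p = 0.196), so the groups are called by their labels and every direction is between libraries so labelled. Ctrl replicate 1 stood apart, with 9 T and NK cell markers summing to 126 CPM and 8 B cell markers to 518 CPM, against at most 5.14 and 56.7 CPM in the other 5 libraries. MP replicate 1 also differed from its group, in nuclear genes of the respiratory chain as given below and in other genes. Of the skeletal muscle markers, Myh1 was at 9413 CPM there, against 2811 and 3082 CPM in MP replicates 2 and 3. Pvalb was at 3036 CPM, against 8213 and 6690 CPM. Endothelial markers summed to 565 CPM, against 284 and 300 CPM.

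Muscle takes up leucine, isoleucine and valine and removes their amino group in the mitochondrion, which leaves branched-chain keto acids. The branched-chain keto acid dehydrogenase complex (BCKDH) then decarboxylates these in the committed step, switched off by a kinase and on by a phosphatase. Leucine carbon ends as acetyl-CoA and acetoacetate, whereas valine and part of isoleucine end as propionyl-CoA, which is carboxylated and rearranged to succinyl-CoA with the help of a cobalamin cofactor. KLF15 is a glucocorticoid-responsive transcription factor known in muscle for driving genes of this pathway.

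In libraries labelled MP most of the pathway lay lower than in libraries labelled Ctrl, with log2 fold changes down to -1.05. Past an adjusted p of 0.05 over all genes, 3 of the 30 tested members fell and 0 rose. The 3 were Pccb, the beta subunit of propionyl-CoA carboxylase, Bckdhb, the beta subunit of the BCKDH decarboxylase, and Mmab, which makes the adenosylcobalamin cofactor of methylmalonyl-CoA mutase. Over all tested genes 0.508% were called lower and 0.788% higher. A negative log2 fold change was found in 28 of 30 members, with a median of -0.39, against 53.4% of all genes and a median of -0.03. Every MP library lay below every Ctrl library in 14 of 30 members, against 13.6% of all genes, and the reverse held in 0 members, against 13.8%. An unadjusted p under 0.05 with a lower value in MP libraries was found for 15 members and for 10.3% of all genes. Because the genes were chosen with this comparison known, nothing is read from these shares.

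**Figure D1:**
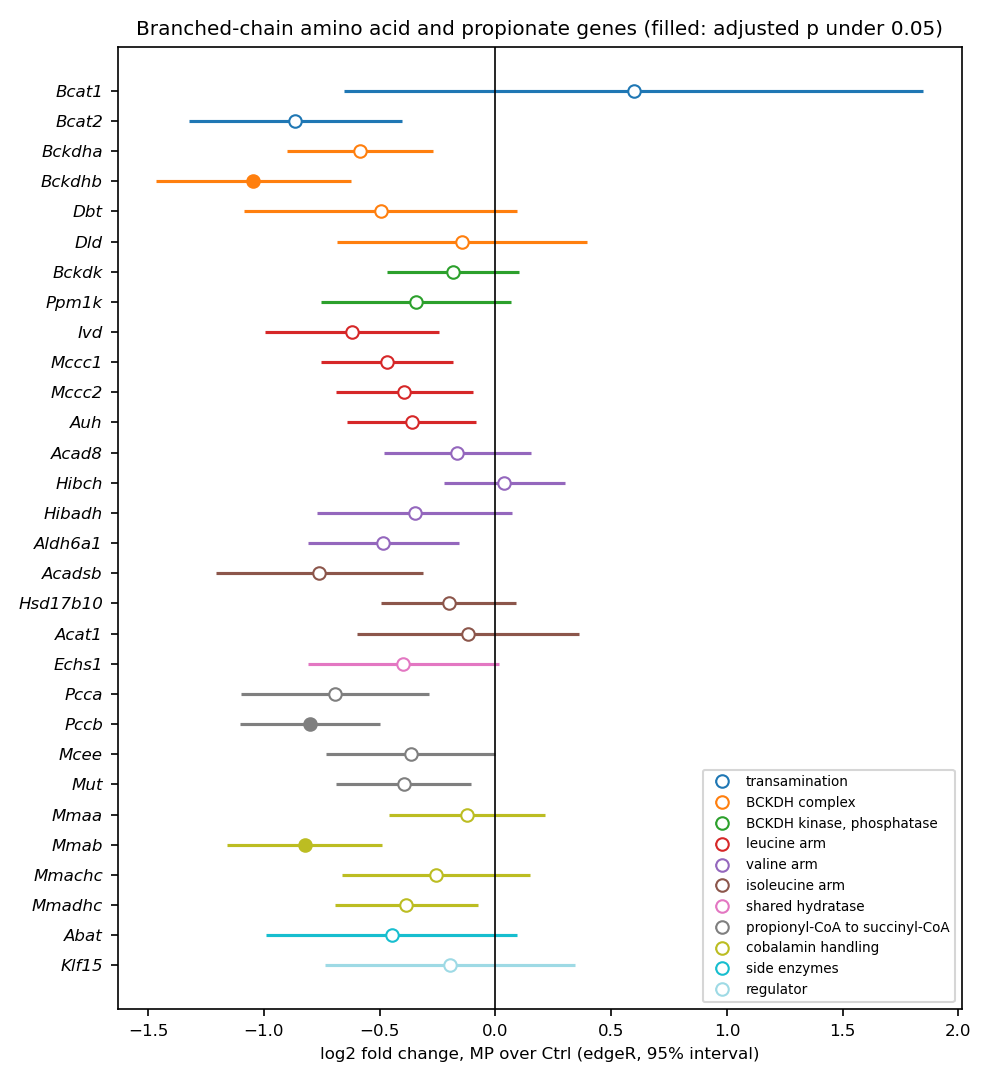
Log2 fold change of MP over Ctrl libraries (x axis) for the 30 tested members (y axis), coloured by step of the pathway. Points are edgeR estimates with 95% intervals, and filled points (Bckdhb, Pccb, Mmab) have an adjusted p under 0.05; 28 of the 30 points lie left of 0.

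A window before the start site of each of these 3 genes is shown because the genes lay lower together and because Mmab shares its window with a neighbour described below. The sequences are from RefSeq on GRCm38.p6, without the bases that lie inside the gene in the deposited table, 5′ to 3′ along the gene, with CACCC or GGGTG (the core of sites bound by Krüppel-like factors) and CCAAT or ATTGG (the CCAAT box) in capitals, where adjoining capitals may hold overlapping matches. Pccb is at chr9:101034899-101035134 on the minus strand, with 236 bases, and Bckdhb at chr9:83924887-83925136 on the plus strand, with 250 bases. Mmab is at chr5:114444061-114444268 on the minus strand, the 208 bases between its start and that of Mvk in the deposited table.
Pccb: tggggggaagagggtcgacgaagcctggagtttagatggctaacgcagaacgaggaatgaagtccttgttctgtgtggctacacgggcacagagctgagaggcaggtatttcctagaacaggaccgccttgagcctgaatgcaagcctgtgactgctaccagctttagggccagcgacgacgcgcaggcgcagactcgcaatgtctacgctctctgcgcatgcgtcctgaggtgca
Bckdhb: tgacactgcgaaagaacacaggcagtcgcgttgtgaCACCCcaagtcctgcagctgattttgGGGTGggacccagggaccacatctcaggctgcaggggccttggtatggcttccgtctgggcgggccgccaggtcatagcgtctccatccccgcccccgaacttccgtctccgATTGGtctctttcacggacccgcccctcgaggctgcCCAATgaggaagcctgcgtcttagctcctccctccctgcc
Mmab: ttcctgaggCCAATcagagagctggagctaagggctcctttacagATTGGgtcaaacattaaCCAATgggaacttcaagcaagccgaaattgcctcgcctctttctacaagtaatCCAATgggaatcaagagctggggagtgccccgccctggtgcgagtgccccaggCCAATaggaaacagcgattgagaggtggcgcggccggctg
The Pccb stretch held 0 matches to either motif, the Bckdhb stretch 2 to each, and the Mmab stretch 0 to CACCC or GGGTG and 5 to CCAAT or ATTGG. RefSeq gives Bckdhb another start inside the gene, whose window at chr9:83948531-83948780 held 0 matches to either motif and is not printed. RefSeq windows of 250 bases, untrimmed, were found for 26 of the 31 members, 32 windows in all. On either strand CACCC or GGGTG was in 62.5% of these and in 52.0% of all 32851 windows of the same length. CCCNCCC or GGGNGGG, which can overlap it, was in 59.4% of member windows and 44.8% of all windows, and CCAAT or ATTGG in 56.2% of member windows and 33.8% of all windows. The median share of G and C bases was 56.8% in member windows and 52.4% in all windows, and its part in these shares was not tested.

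The entry step is transamination. Bcat2, the mitochondrial aminotransferase and the main form in muscle, was at 62.0, 52.2 and 51.1 CPM in MP libraries and at 72.1, 119 and 109.9 CPM in Ctrl libraries. The groups did not overlap, and Ctrl replicate 1 was the Ctrl library nearest to MP. Its log2 fold change was -0.87 ± 0.20 (SE), which did not pass over all genes with the 6 libraries (edgeR adjusted p = 0.0834) and passed without Ctrl replicate 1 (-1.06 ± 0.12, adjusted p = 0.00690). Bcat1, the cytosolic form, had 38 counts over the MP libraries and 24 over the Ctrl libraries. It was at 0.579, 0.436 and 0.601 CPM in MP libraries and at 0.667, 0.189 and 0.184 CPM in Ctrl libraries, the highest value being in the library with the lymphocyte markers. Its log2 fold change was 0.60 ± 0.54 (adjusted p = 0.553). Per length, Bcat2 stood 256-fold, 286-fold and 203-fold above Bcat1 in MP libraries and 258-fold, 1508-fold and 1425-fold above it in Ctrl libraries, on few Bcat1 counts.

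Of the 4 subunit genes of the BCKDH complex 1 fell, Bckdhb. Bckdhb (ENSMUSG00000032263, GRCm38 chromosome 9, 83925145 to 84124240, protein-coding) was at 17.8, 20.7 and 18.3 CPM in MP libraries and at 29.4, 42.2 and 45.6 CPM in Ctrl libraries. The MP libraries lay within a narrow range below every Ctrl library, and the gene fell to a mean of 18.9 ± 1.55 CPM in MP libraries, against 39.1 ± 8.52 CPM in Ctrl libraries (SD, n = 3 each). The log2 fold change was -1.05 ± 0.18 (95% interval -1.47 to -0.62, edgeR adjusted p = 0.0463), the lowest of the 30. Without single libraries it ran from -1.22 to -0.92, and the call held without Ctrl replicate 1 (adjusted p = 0.00576) and was lost without any of the other 5 (adjusted p from 0.138 to 0.216). Bckdha, the alpha subunit that pairs with it, was at 40.9, 38.7 and 42.3 CPM in MP libraries and at 51.4, 62.3 and 69.1 CPM in Ctrl libraries. These groups did not overlap either, with a log2 fold change of -0.59 ± 0.13 (adjusted p = 0.0845). About 9.53% of the counts at this locus were assigned to B3gnt8, which overlaps Bckdha on the opposite strand, so its value is uncertain. Per length, the ratio of Bckdha to Bckdhb was 2.19, 1.78 and 2.19 in MP libraries and 1.66, 1.40 and 1.44 in Ctrl libraries. That ratio was higher in every MP library, by 0.45 on the log2 scale of FPKM, and leaving out 1 library gave 0.40 to 0.55.

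Dbt, the transacylase core of the complex, was at 59.7, 43.2 and 47.5 CPM in MP libraries and at 45.3, 90.3 and 76.7 CPM in Ctrl libraries. The groups overlapped because Ctrl replicate 1 lay among the MP libraries, and the log2 fold change was -0.50 ± 0.25 (adjusted p = 0.308). Without that library it was -0.74 ± 0.16 (edgeR adjusted p = 0.0288). Dld, the dihydrolipoamide dehydrogenase that BCKDH shares with the pyruvate and oxoglutarate dehydrogenases, was at 324, 195 and 190 CPM in MP libraries and at 217, 283 and 284 CPM in Ctrl libraries. MP replicate 1 was the highest of all 6 libraries and the other MP libraries were the lowest. The log2 fold change was -0.14 ± 0.23, and it turned to 0.015 with scaling by library totals alone. Without both MP replicate 1 and Ctrl replicate 1 it was -0.54 ± 0.09 (adjusted p = 0.00747).

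The kinase and the phosphatase that set the activity of the complex both lay lower on average in MP libraries. Bckdk, the inhibitory kinase, was at 127, 114 and 121 CPM in MP libraries and at 119.7, 142 and 149 CPM in Ctrl libraries. Ppm1k, the activating phosphatase, was at 17.6, 14.5 and 11.7 CPM in MP libraries and at 17.5, 17.9 and 20.2 CPM in Ctrl libraries. Neither passed, with log2 fold changes of -0.18 ± 0.12 and -0.34 ± 0.18 (edgeR adjusted p = 0.426 and 0.311), and in both the groups overlapped. Without both MP replicate 1 and Ctrl replicate 1 they were -0.29 ± 0.09 and -0.53 ± 0.15 (edgeR adjusted p = 0.0553 and 0.0444). That fit called 11.3% of all genes lower. The ratio of Bckdk to Ppm1k per length was 11.7, 12.8 and 16.9 in MP libraries and 11.2, 13.0 and 12.01 in Ctrl libraries. Of the MP libraries 2 lay within the Ctrl range and MP replicate 3 lay above it. The mean log2 ratio was 3.77 ± 0.28 in MP libraries and 3.59 ± 0.11 in Ctrl libraries (SD, n = 3 each).

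**Figure D2:**
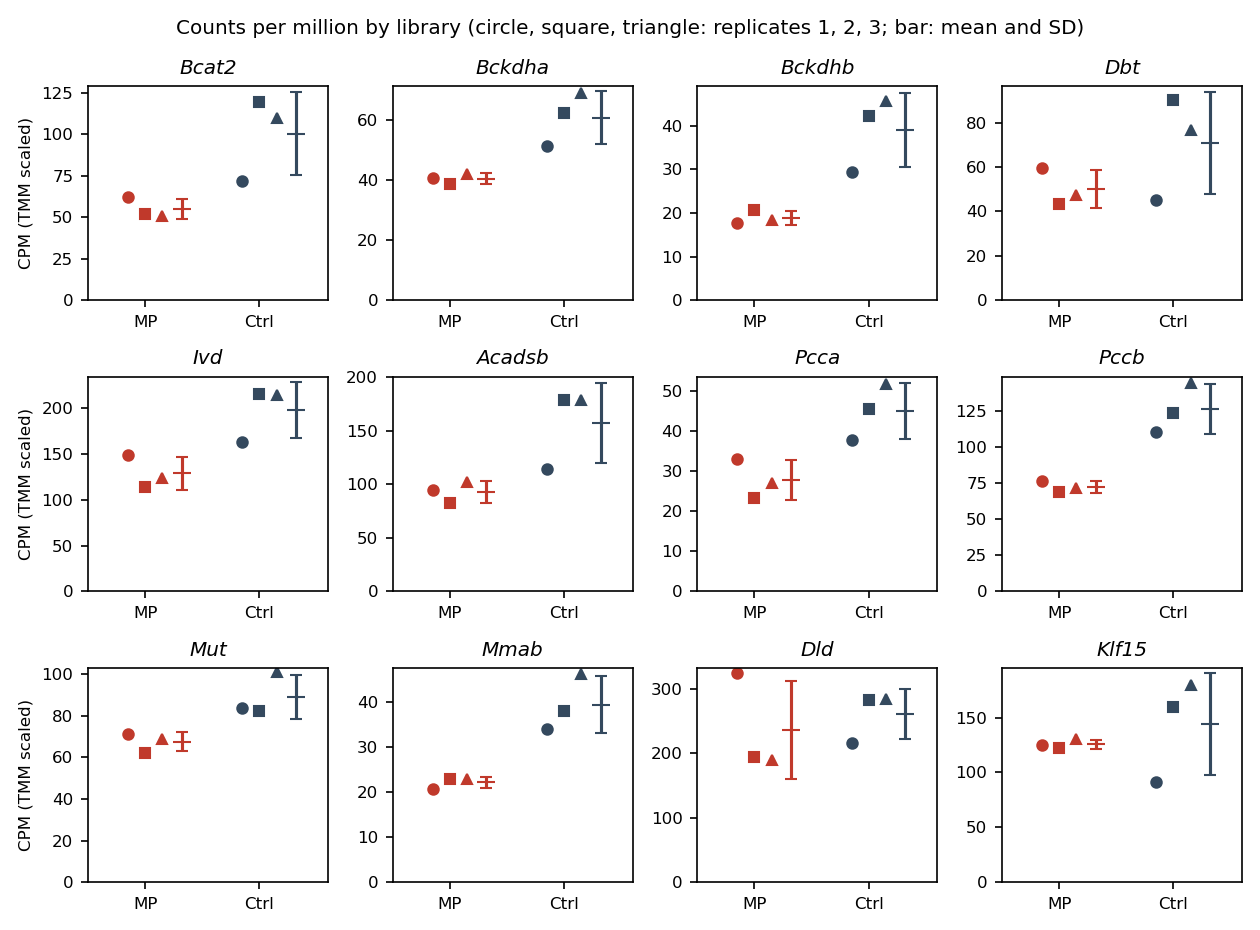
CPM of 12 members (y axes, from 0) in MP and Ctrl libraries, with circles, squares and triangles for replicates 1, 2 and 3 and a bar for the mean and SD of 3 libraries. Bckdhb, Pccb and Mmab show 3 MP values below every Ctrl value, whereas in Dld the MP replicate 1 value of 324 CPM is the highest of all.

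All 4 genes of the leucine arm separated the groups with MP libraries lower, as 13.6% of all tested genes did. Ivd, isovaleryl-CoA dehydrogenase, was at 149, 114 and 123 CPM in MP libraries and at 163, 216 and 215 CPM in Ctrl libraries (log2 fold change -0.62 ± 0.16, edgeR adjusted p = 0.104). Both subunits of methylcrotonyl-CoA carboxylase lay lower in every MP library. Mccc1, the biotin-carrying alpha subunit, was at 34.1, 29.1 and 28.9 CPM in MP libraries and at 40.0, 41.3 and 46.0 CPM in Ctrl libraries. Mccc2, the beta subunit, was at 26.2, 24.5 and 25.3 CPM in MP libraries and at 29.6, 32.7 and 37.6 CPM in Ctrl libraries. Their log2 fold changes were -0.47 ± 0.12 and -0.39 ± 0.13, and their ratio per length overlapped between the groups. Auh, methylglutaconyl-CoA hydratase, was at 53.4, 44.7 and 49.7 CPM in MP libraries and at 57.7, 65.9 and 66.5 CPM in Ctrl libraries (-0.36 ± 0.12). None of these 4 genes passed over all genes with the 6 libraries (adjusted p from 0.104 to 0.160). Without Ctrl replicate 1 all 4 passed, with adjusted p-values from 0.0204 for Ivd to 0.0483 for Auh, in a fit that called 7.06% of all genes lower.

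In the valine arm the genes differed among themselves. Aldh6a1, which turns methylmalonate semialdehyde into propionyl-CoA, was at 141, 155 and 148 CPM in MP libraries and at 172, 232 and 219 CPM in Ctrl libraries. These groups did not overlap (log2 fold change -0.49 ± 0.14, edgeR adjusted p = 0.126, and 0.0185 without Ctrl replicate 1). Hibch, hydroxyisobutyryl-CoA hydrolase, was at 41.2, 38.3 and 41.3 CPM in MP libraries and at 36.0, 42.3 and 39.4 CPM in Ctrl libraries. Its log2 fold change of 0.04 (95% interval -0.22 to 0.30) was the nearest to 0 of all members, and it turned to -0.025 without Ctrl replicate 1. Acad8, isobutyryl-CoA dehydrogenase, and Hibadh, hydroxyisobutyrate dehydrogenase, had log2 fold changes of -0.16 ± 0.14 and -0.35 ± 0.18 with overlapping groups.

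Of the isoleucine genes, Acadsb separated the groups. This short and branched-chain acyl-CoA dehydrogenase was at 94.4, 82.3 and 102 CPM in MP libraries and at 114, 179 and 179 CPM in Ctrl libraries (log2 fold change -0.76 ± 0.19, edgeR adjusted p = 0.0976, and 0.00904 without Ctrl replicate 1). The later steps are shared with other routes and lay closer to 0. Hsd17b10, a dehydrogenase that also serves mitochondrial tRNA processing, showed -0.20 ± 0.13 with overlapping groups. Acat1, the mitochondrial thiolase also used for ketone bodies, was at 296, 181 and 198 CPM in MP libraries and at 210, 260 and 263 CPM in Ctrl libraries. Its pattern was that of Dld, with MP replicate 1 highest of all, and the log2 fold change of -0.12 ± 0.21 turned to 0.038 with library totals alone and to 0.011 without MP replicate 2. Echs1, the enoyl-CoA hydratase of both the valine and isoleucine arms and of fatty acid oxidation, had -0.40 ± 0.18 with overlapping groups. Paox, which overlaps Echs1 on the other strand, took 8.21% of the counts of the pair, so Echs1 is uncertain.

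All 4 genes of the propionate steps lay lower on average, and 1 of them fell. Pccb (ENSMUSG00000032527, chromosome 9, 100982032 to 101034898, protein-coding) was at 76.5, 68.6 and 71.6 CPM in MP libraries and at 110.5, 123 and 144 CPM in Ctrl libraries. It fell to a mean of 72.2 ± 3.98 CPM in MP libraries, against 126 ± 17.1 CPM in Ctrl libraries (SD, n = 3 each), with a wide gap between the groups. The log2 fold change was -0.80 ± 0.13 (95% interval -1.11 to -0.50, edgeR adjusted p = 0.0410). Without single libraries it ran from -0.89 to -0.70. The call held without Ctrl replicate 1 (adjusted p = 0.00912) and was lost without any of the other 5 (adjusted p from 0.107 to 0.207). Pcca, the biotin-carrying alpha subunit of the same carboxylase, was at 33.2, 23.3 and 27.0 CPM in MP libraries and at 37.8, 45.6 and 51.8 CPM in Ctrl libraries. The groups did not overlap, and the log2 fold change was -0.69 ± 0.17 (adjusted p = 0.0976, and 0.0255 without Ctrl replicate 1). Ggact overlaps Pcca on the opposite strand and took 13.9% of the counts of the pair, so Pcca is uncertain. The ratio of Pcca to Pccb per length was 0.231, 0.181 and 0.201 in MP libraries and 0.182, 0.197 and 0.191 in Ctrl libraries, and the groups overlapped.

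Mut, the mutase that forms succinyl-CoA, was at 71.3, 62.2 and 69.0 CPM in MP libraries and at 83.5, 82.4 and 100.9 CPM in Ctrl libraries, again without overlap (log2 fold change -0.40 ± 0.12, edgeR adjusted p = 0.144). Cenpq overlaps Mut on the other strand and took 6.03% of the counts of the pair. Mcee, the epimerase between carboxylase and mutase, was at a log2 fold change of -0.37 ± 0.16 (adjusted p = 0.238) with overlapping groups.

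Of the 4 cobalamin genes 1 fell, Mmab. Mmab (ENSMUSG00000029575, chromosome 5, 114431034 to 114444060, protein-coding) was at 20.9, 22.9 and 23.1 CPM in MP libraries and at 34.0, 38.1 and 46.4 CPM in Ctrl libraries. It fell to a mean of 22.3 ± 1.23 CPM in MP libraries, against 39.5 ± 6.31 CPM in Ctrl libraries (SD, n = 3 each). The log2 fold change was -0.82 ± 0.14 (95% interval -1.16 to -0.49, edgeR adjusted p = 0.0471). Without Ctrl replicate 1 the adjusted p was 0.0113, and without any of the other 5 libraries it was 0.125 to 0.212. With scaling by library totals alone it was 0.0533. Mmadhc, which routes cobalamin between the mitochondrion and the cytosol, was at 98.3, 85.6 and 85.5 CPM in MP libraries and at 100.2, 126 and 126 CPM in Ctrl libraries. Its groups lay close at MP replicate 1 and Ctrl replicate 1 but did not overlap (-0.39 ± 0.13, adjusted p = 0.171, and 0.0323 without Ctrl replicate 1). Mmachc, the first processing enzyme of cobalamin, and Mmaa, the chaperone that loads the cofactor onto the mutase, overlapped between the groups with -0.26 ± 0.17 and -0.12 ± 0.15. The value of Mmaa turned to 0.032 with library totals alone.

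The side enzymes were scarce. Abat, a transaminase of GABA that also acts on a product of valine, was at 3.26, 2.96 and 3.64 CPM in MP libraries and at 5.005, 3.40 and 5.07 CPM in Ctrl libraries (log2 fold change -0.45 ± 0.23, edgeR adjusted p = 0.315). Hmgcll1, a hydroxymethylglutaryl-CoA lyase outside the mitochondrion, lay higher in every MP library. It had 8, 25 and 17 counts in MP libraries and 4, 6 and 6 counts in Ctrl libraries. It missed the filter, and with no filter its log2 fold change was 1.59 ± 0.62 (adjusted p = 0.333).

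Klf15, the regulator, did not separate the groups. It was at 125, 122 and 130.2 CPM in MP libraries and at 91.5, 159.8 and 180.0 CPM in Ctrl libraries, so that the MP libraries lay close together and Ctrl replicate 1 lay below them all. The log2 fold change was -0.20 ± 0.23 (95% interval -0.74 to 0.35, edgeR adjusted p = 0.664). Without Ctrl replicate 1 it was -0.44 ± 0.11 (adjusted p = 0.0394).

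Per length, the members spanned about 3 orders of magnitude. In deposited FPKM, averaged over the 6 libraries, Dld (67.4) and Acat1 (62.3) were highest, followed by Mmadhc (51.4), Klf15 (48.2), Hsd17b10 (44.3) and Pccb (35.7). Dld was at 64.0 ± 20.1 FPKM in MP libraries and 70.8 ± 10.7 FPKM in Ctrl libraries (SD, n = 3 each). Acat1 was at 59.7 ± 15.9 FPKM in MP libraries and 64.9 ± 8.20 FPKM in Ctrl libraries. Within libraries Dld lay above Acat1 except in MP replicate 3 (51.9 against 53.0 FPKM), and their difference was not tested. The genes particular to the pathway mostly lay in the middle, from Bckdk at 34.8 FPKM down to Mccc2 at 10.4 FPKM. Mccc1 (3.33), Ppm1k (2.75) and Mmaa (2.52) were low, and Abat (0.501), Hmgcll1 (0.0902) and Bcat1 (0.0474) were the lowest. The median over the 31 members was 13.9 FPKM in MP libraries and 21.1 FPKM in Ctrl libraries.

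**Figure D3:**
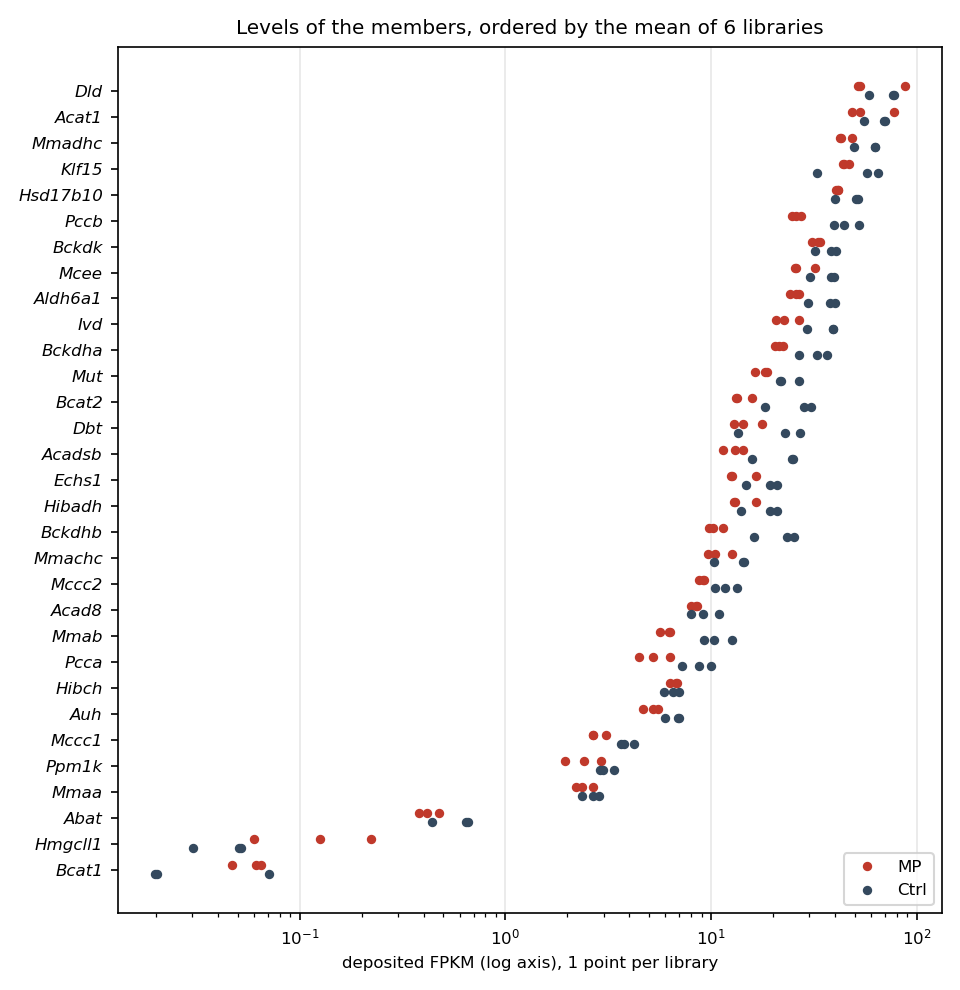
Deposited FPKM of the 31 members (log x axis), with 1 point per library, MP above Ctrl in each row, ordered by the mean of 6 libraries. Levels run from 67.4 FPKM for Dld to 0.0474 FPKM for Bcat1, and MP points lie left of Ctrl points for Pccb, Bckdhb, Mmab, Ivd and Mut.

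The members varied within the groups in a shared way. In 27 of 30 tested members Ctrl replicate 1 was the lowest Ctrl library, and in 21 of 30 MP replicate 1 was the highest MP library. How often this held over all tested genes was not counted, so it is not read as particular to the members. In the median of the members these are the libraries nearest to the opposite group, but by correlation over all tested genes they were not. There MP replicate 1 correlated with Ctrl libraries at 0.948 to 0.966, against 0.954 to 0.976 for MP replicate 3. Ctrl replicate 1 correlated with MP libraries at 0.948 to 0.961, against 0.962 to 0.970 for Ctrl replicate 2 and 0.966 to 0.976 for Ctrl replicate 3. A chi-square per degree of freedom on raw counts, smaller for libraries more alike, gave another order for Ctrl replicate 1. Against MP replicate 1 it was 101 for Ctrl replicate 1, 118 for Ctrl replicate 2 and 129 for Ctrl replicate 3. Against MP replicates 2 and 3 it was 65.6 and 69.2 for Ctrl replicate 1, 78.1 and 72.5 for Ctrl replicate 2, and 62.6 and 59.8 for Ctrl replicate 3. All 3 MP libraries lay below both Ctrl replicates 2 and 3 in 24 of 30 members, against 27.4% of all tested genes. The median of the members, as log2 CPM relative to the mean of all libraries, was -0.07, -0.31 and -0.23 in MP libraries and -0.03, 0.29 and 0.32 in Ctrl libraries. By the same measure Ctrl replicate 1 was also the lowest Ctrl library for the skeletal muscle markers (-0.20). The same held for the nuclear respiratory chain genes (-0.15) and the glucocorticoid-responsive genes (-0.73) described below. Without Ctrl replicate 1, 15 of the 31 members then tested fell and 0 rose, against 7.06% of all genes called lower and 5.91% higher. With MP replicate 1 left out as well, 23 of 31 fell and 0 rose, against 11.3% and 10.5%, a choice made after the library medians were seen. Without any 1 of the other libraries 0 members passed, where the share of all genes called lower was 0.0325% without MP replicate 1, 0.00644% without Ctrl replicate 2 and 0.0% without MP replicate 2, MP replicate 3 or Ctrl replicate 3. DESeq2 with all libraries called 9 of 29 members lower, against 3.13% of all genes, and limma-voom called 1, Pccb, against 0.354%. With edgeR, median-of-ratios scaling gave 3 members lower against 0.528% of all genes, upper quartile scaling 3 against 0.514%, a filter of at least 1 CPM in every library 3 against 0.803% and library totals alone 2 against 0.361%. No filter gave 0 against 0.142%, limma on log2(FPKM + 1) and on log2(FPKM + 0.1) 0 against 0.294% each, and the replicate block 0 against 0.02%. At an adjusted p under 0.1, 7 members were lower, against 2.14% of all genes.

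**Figure D4:**
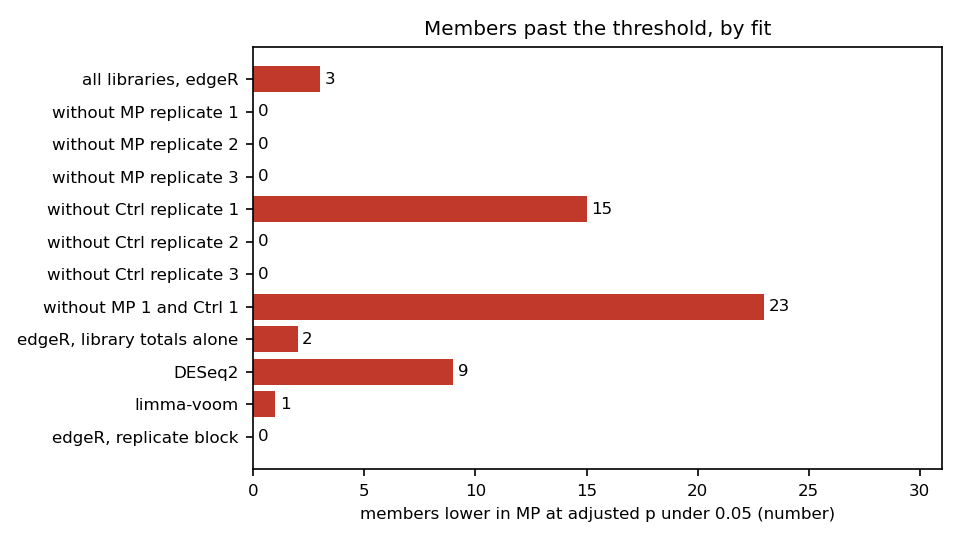
Number of members lower in MP libraries at an adjusted p under 0.05 (bars, x axis from 0) in each fit (y axis). The count is 3 with all libraries in edgeR, 15 without Ctrl replicate 1, 23 without both replicates numbered 1 and 0 when any of the other 5 libraries is left out.

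The 28 nuclear genes of the respiratory chain and ATP synthase had a library median of 0.42 in MP replicate 1, above every other library, and of -0.30 and -0.29 in MP replicates 2 and 3, against -0.15, 0.16 and 0.17 in Ctrl libraries. Of these 28 genes 0 passed in edgeR, and the median log2 fold change was -0.07. At an unadjusted p under 0.05, 2 were lower and 0 higher, against 10.3% and 10.5% of all genes. Cox8b and Cox6a2, muscle isoforms of cytochrome c oxidase subunits, were the 2, with -0.78 ± 0.19 and -0.65 ± 0.18 (adjusted p = 0.0963 and 0.119). The 8 markers listed for slow fibres summed to 1719 to 3253 CPM in MP libraries and to 2752 to 3181 CPM in Ctrl libraries. All 8 had a negative log2 fold change, with a median of -0.28, against 53.4% of all genes. Lower at an unadjusted p under 0.05 in edgeR were 0 of the 8. The list includes Myh2, a fast myosin, at 2248, 946 and 1306 CPM in MP libraries and 1762, 1960 and 1706 CPM in Ctrl libraries. Myh7, the slow myosin, was at 181, 153 and 242 CPM in MP libraries and 183, 168 and 286 CPM in Ctrl libraries. Endothelial markers summed to 284 to 565 CPM in MP libraries and to 209 to 303 CPM in Ctrl libraries, and fibro-adipogenic progenitor markers to 979 to 1189 CPM in MP libraries and 611 to 921 CPM in Ctrl libraries. The B cell markers summed to 6.98 to 56.7 CPM in MP libraries and to 8.32 to 518 CPM in Ctrl libraries, the T and NK cell markers to 0.868 to 5.14 CPM in MP libraries and 0.709 to 126 CPM in Ctrl libraries. Adipocyte markers summed to 766 to 1216 CPM in MP libraries and to 447 to 990 CPM in Ctrl libraries. Of these, Fabp4 was at 1033, 607 and 442 CPM in MP libraries and 426, 300 and 318 CPM in Ctrl libraries. Among the 8 adipocyte markers, 4 had a negative and 4 a positive log2 fold change. Their library median was -0.93, 0.99 and 0.20 in MP libraries and 1.10, -0.98 and -0.39 in Ctrl libraries. Macrophage markers summed to 188 to 271 CPM in MP libraries and 107 to 275 CPM in Ctrl libraries. The log2 fold change was positive in all 8 macrophage markers (median 0.32) and all 6 endothelial markers (median 0.58). It was also positive in 6 of 7 fibro-adipogenic progenitor markers (median 0.49), and negative in 7 of the 10 skeletal muscle markers (median -0.20). In each of the first 3 lists 0 passed in edgeR and 2 were higher at an unadjusted p under 0.05, against 10.5% of all genes. The part of other cell types in the members' differences was not tested, and fewer cells of a type and less RNA per cell cannot be told apart in bulk muscle.

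**Figure D5:**
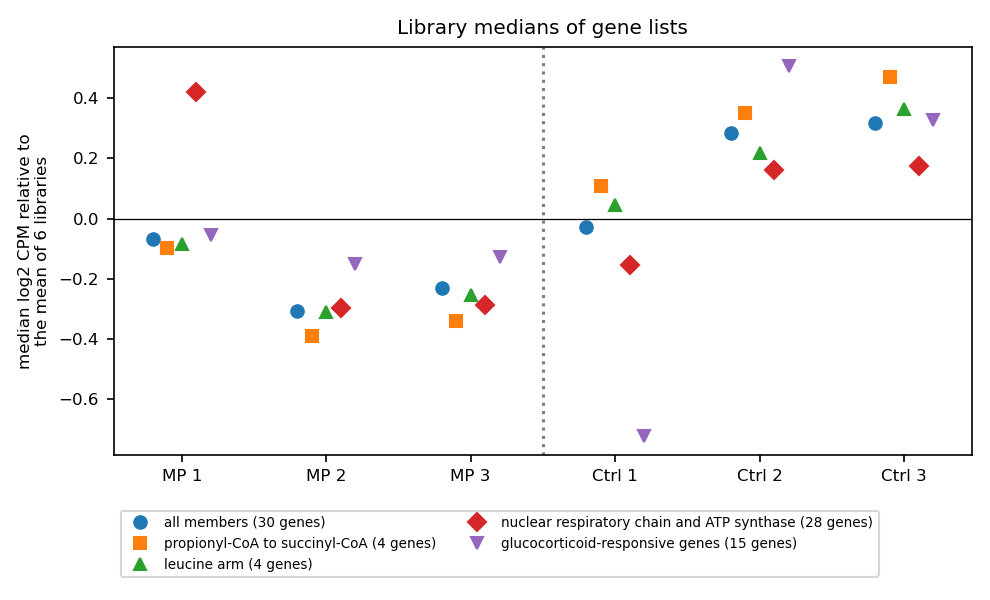
Median log2 CPM of gene lists relative to the mean of 6 libraries (y axis) in each library (x axis, MP left of Ctrl). The respiratory chain list is at 0.42 in MP replicate 1, where all members are at -0.07, and the glucocorticoid list is at -0.73 in Ctrl replicate 1.

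Genes around the pathway were read from lists of carriers, cofactor proteins, downstream enzymes, other amino acid enzymes and glucocorticoid-responsive genes. For comparison, the main fit called 0.508% of all tested genes lower and 0.788% higher. Of 13 tested enzymes of other amino acids 1 fell, Aldh4a1, which completes proline breakdown, at 29.7, 34.3 and 27.2 CPM in MP libraries and 51.1, 53.9 and 67.2 CPM in Ctrl libraries (log2 fold change -0.92 ± 0.15, edgeR adjusted p = 0.0420). The list had a median of -0.19. Without Ctrl replicate 1, 6 of its genes fell, against 7.06% of all genes, among them Gcdh and Aldh7a1 of lysine breakdown. Of 15 downstream enzymes 0 passed with all libraries in edgeR, and the median was 0.01. At an unadjusted p under 0.05, 2 were higher and 1 lower, against 10.5% and 10.3% of all genes. Oxct1, which activates ketone bodies for oxidation, was at 170, 74.0 and 99.1 CPM in MP libraries and at 232, 268 and 319 CPM in Ctrl libraries. Its groups did not overlap (-1.25 ± 0.30, adjusted p = 0.0863, and 0.0337 without Ctrl replicate 1). Acss3, a propionyl-CoA synthetase, had 0.56 ± 0.22 (adjusted p = 0.211).

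Of 8 carriers 0 passed with all libraries in edgeR. At an unadjusted p under 0.05, against 10.5% of all genes higher and 10.3% lower, 1 carrier was higher and 1 lower. These were the facilitative carriers of large neutral amino acids Slc43a2, at 96.3, 141 and 142 CPM in MP libraries and 48.5, 94.8 and 80.6 CPM in Ctrl libraries (0.76 ± 0.26, adjusted p = 0.170), and Slc43a1, at 93.0, 103 and 116 CPM in MP libraries and 83.4, 271 and 301 CPM in Ctrl libraries (-1.07 ± 0.42, adjusted p = 0.206). In Slc43a1 the groups overlapped through Ctrl replicate 1 alone, and without it the log2 fold change was -1.46 (adjusted p = 0.00386). Slc25a44, the mitochondrial carrier of branched-chain amino acids, had -0.21 ± 0.16 (adjusted p = 0.471). Of 19 tested cofactor proteins 0 passed in edgeR. An unadjusted p under 0.05 was found for 2 higher and 1 lower, against 10.5% and 10.3% of all genes. Slc19a2, a thiamine carrier, had -0.68 ± 0.18 and Lmbrd1, which exports cobalamin from the lysosome, 0.40 ± 0.11 (adjusted p = 0.111 and 0.117).

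Of 15 glucocorticoid-responsive genes 0 passed with all libraries in edgeR, with 4 lower and 0 higher at an unadjusted p under 0.05, against 10.3% and 10.5% of all genes. Sgk1, a serum- and glucocorticoid-induced kinase, was at 125, 82.0 and 110.7 CPM in MP libraries and at 196, 191 and 267 CPM in Ctrl libraries (-1.04 ± 0.20, adjusted p = 0.0590). Tsc22d3, which encodes the leucine zipper protein GILZ, had -0.82 ± 0.25 (adjusted p = 0.138). Without Ctrl replicate 1, 7 of the 15 fell and 0 rose, against 7.06% of all genes called lower and 5.91% higher. The median of this list was -0.73 in Ctrl replicate 1, the library in which Klf15 was also lowest, against 0.51 and 0.33 in the other Ctrl libraries and -0.05, -0.15 and -0.13 in MP libraries. Of 8 regulators of oxidative metabolism 0 passed in edgeR, with 3 higher and 0 lower at an unadjusted p under 0.05, against 10.5% and 10.3% of all genes. Ppargc1a, the coactivator of mitochondrial biogenesis, was at 86.5, 34.7 and 35.2 CPM in MP libraries and at 16.1, 15.5 and 25.4 CPM in Ctrl libraries (1.46 ± 0.39, adjusted p = 0.109). Ppargc1b, its relative, had 0.87 ± 0.32 (adjusted p = 0.185, and 0.0173 without Ctrl replicate 1).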

How the data were processed

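Groups and replicate numbers came from the sample titles. The authors deposited raw counts per Ensembl gene and FPKM values, per the file headers. The submitters' processing notes name HISAT2 2.0.5, featureCounts 1.5.0-p3 and the build GRCm38. For the strand setting, annotation release and filters the entry is "not given in the sources used here", and genes that overlap are named as uncertain. From the values, the authors' FPKM use a library size other than the total, and FPKM recomputed from totals was 0.878 to 1.11 times the deposited value. By library this ratio was 1.05, 1.06 and 1.06 in MP libraries and 1.11, 0.878 and 0.879 in Ctrl libraries, near the TMM factors given below. The fits on FPKM thus carry nearly the same scaling as the main fit.

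The main test on counts was that of edgeR 4.0.16 under R 4.3.3 (TMM scaling, filterByExpr, quasi-likelihood test with legacy = FALSE), two-sided, adjusted by Benjamini-Hochberg over all 14973 genes at 0.05. Log2 fold changes are given ± SE (the size of the change divided by the square root of F), and CPM use TMM library sizes. TMM factors ran from 1.04 to 1.07 in MP libraries and were 1.10, 0.877 and 0.880 in Ctrl libraries. A count of 3 corresponds to 0.120 to 0.145 CPM, and covers counting error only. Members and lists were chosen with earlier results of these data known. Every member was named, and of each other list the called genes (at most 4), or where none was called the 2 lowest in p. Slc25a44, Gcdh, Aldh7a1, the CCAAT motif, the neighbouring genes and the fit without both replicates numbered 1 were chosen after values were seen. Alternatives were DESeq2 1.42.0, limma-voom and limma 3.58.1 on log2(FPKM + 1) and log2(FPKM + 0.1), other scalings and filters, a looser threshold, a replicate block and fits without each library. The steps were tested on simulated data.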

Additional observations from a re-analysis of the deposited data

How the results depend on the processing

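All 3 called members kept a negative log2 fold change in every fit, but their calls depended on the libraries and the tool. The count of members lower was 3 with all libraries, 0 to 15 without single libraries, 23 without both replicates numbered 1, 9 in DESeq2, 1 in limma-voom, 7 at an adjusted p of 0.1, and 0 with no filter, with limma on log2(FPKM + 1) or log2(FPKM + 0.1) and with the replicate block. All genes past the threshold numbered 194, and 0 to 1981 without single libraries (0 without Ctrl replicate 3, 1981 without Ctrl replicate 1), 3271 without both replicates numbered 1, 977 in DESeq2, 124 with no filter, 112 and 121 with limma on log2(FPKM + 1) and log2(FPKM + 0.1), 739 at an adjusted p of 0.1 and 5 with the block. Over the other lists, with 8, 19, 15, 13, 15, 8 and 28 tested genes, 1 gene was lower and 0 higher. Of all genes 0.508% were lower and 0.788% higher. The lower count was 0 to 21 without single libraries, with 21 without Ctrl replicate 1, where 7.06% of all genes were lower. It was 50 without both replicates numbered 1 (11.3% of all genes), 8 in DESeq2 (3.13%) and 6 at 0.1 (2.14%). It was 2 with at least 1 CPM in every library (0.803%). With no filter (0.142%), both limma fits on FPKM (0.294%) and the block (0.02%) it was 0. The higher count was 1 in DESeq2 and with library totals, where 531 and 205 of all genes were higher. It was 0 to 2 without single libraries, with 2 without Ctrl replicate 1 (5.91%), and 6 without both (10.5%). Members without overlap numbered 14, and 14 to 25 without single libraries, where 16.2% to 27.4% of all genes separated with MP lower and 16.5% to 26.8% with MP higher; without Ctrl replicate 1, 24 members were lower and 1 higher, against 27.4% and 26.8%.

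Deviations from the group mean of libraries with the same replicate number correlated at -0.02, -0.17 and 0.16. Those of libraries with different numbers correlated at -0.17 to 0.18. Deviations from a mean of 3 libraries cancel within a group, so this cannot decide whether the numbers pair the samples. Under the block the edgeR adjusted p of Bckdhb and Mmab was 0.0879 and that of Pccb 0.0977. The members' median log2 fold change ran from -0.54 to -0.23, with -0.23 under library totals alone. There the median of all genes was 0.12, against -0.03 with TMM, and 79.2% of calls were higher, against 60.8%. Directions turned for Dld (0.015), Acat1 (0.038) and Mmaa (0.032) with library totals, for Acat1 without MP replicate 2 (-0.35 to 0.011 without single libraries), and for Hibch without Ctrl replicate 1 (-0.025 to 0.093 without single libraries) and without both replicates numbered 1 (-0.018), and none of these passed. The causes were not tested.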

Other observations

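Several members start head to head with a protein-coding gene on the opposite strand. By the coordinates of the deposited table, 9 members had such a neighbour with a start within 1000 bases, and all 9 neighbours were tested. None passed the threshold in edgeR; 6 had a negative and 3 a positive log2 fold change, with a median of -0.20, against -0.40 for the 9 members. Mmab and Mvk, mevalonate kinase of sterol synthesis, start 209 bases apart, with the 208 bases printed in the report between them. Mvk was at 7.44, 8.68 and 7.01 CPM in MP libraries and at 6.01, 8.27 and 7.51 CPM in Ctrl libraries (log2 fold change 0.09 ± 0.19, adjusted p = 0.827), where Mmab fell. The ratio of Mmab to Mvk counts was 2.81, 2.64 and 3.29 in MP libraries and 5.66, 4.61 and 6.17 in Ctrl libraries, without overlap. Bckdha and Exosc5, a subunit of the RNA exosome, start 183 bases apart and lay lower together. Exosc5 was at 16.7, 17.5 and 18.1 CPM in MP libraries and at 23.7, 27.8 and 22.8 CPM in Ctrl libraries (-0.51 ± 0.13, adjusted p = 0.0983). The ratio of Bckdha to Exosc5 counts was 2.45, 2.21 and 2.34 in MP libraries and 2.17, 2.24 and 3.03 in Ctrl libraries, with overlap. Other neighbours had larger negative values. Lin52, beside Aldh6a1, was at 13.7, 10.1 and 8.29 CPM in MP libraries and at 14.5, 19.2 and 21.6 CPM in Ctrl libraries (-0.79 ± 0.23, edgeR adjusted p = 0.130). Mphosph10, beside Mcee, had -0.64 ± 0.23 (edgeR adjusted p = 0.185) with overlapping groups. B3gnt8, which overlaps Bckdha on the other strand, fell (-1.13, adjusted p = 0.0428). These neighbours were looked up after the members' values were seen.

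By position, 6 of the 31 members lie on chromosome 7 (Bcat2, Bckdha, Bckdk, Acadsb, Echs1 and Mcee), 19.4% of members against 7.88% of all tested genes, and 5 on chromosome 9.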
